A study of Homo sapiens with 6 samples.

Results

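Canonical polycomb repressive complex 1 (PRC1) is assembled from paralogues, and 7 of its genes were examined here. They were CBX2, CBX6, CBX7 and CBX8, which encode chromodomain subunits, and PHC1, PHC2 and PHC3, which encode the polyhomeotic subunits. The members were taken by name from a table of 27672 genes, with earlier results of these data known. RNA-seq of polyadenylated RNA was carried out on H9 cells, an established line of human embryonic stem cells (hESCs). Undifferentiated hESCs (day 0, untreated, 3 replicates) were grown without feeders on fibronectin in DEF medium with bFGF at 30 ng/ml and Noggin at 10 ng/ml, according to the sample labels. Neuromesodermal progenitor-like (NMP-L) cells (3 replicates) came from the same line after 3 days in N2/B27 medium with bFGF at 20 ng/ml and CHIR99021 at 3 µM, an inhibitor of the kinase GSK3 that switches on Wnt signalling. The study used this system to follow polycomb occupancy and chromatin as cells leave pluripotency towards the spinal cord, and the comparison asked which paralogues each state transcribed. Both groups share 1 cell line, so differences between lines were not sampled, and the medium, the signals and the days in culture all change together between the groups and cannot be told apart.

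PRC1 adds ubiquitin to histone H2A through RING1 or RNF2 (Ring1B). In canonical PRC1 a CBX protein reads H3K27me3, the mark placed by PRC2, through its chromodomain and so brings the complex to marked genes. A PHC protein occupies another position in the same complex and can polymerise through its SAM domain, which is known to bring polycomb-bound sites together and compact chromatin. Each complex takes 1 CBX and 1 PHC protein, so the paralogues of a family compete for a place. CBX7 is best known as the CBX protein of pluripotent cells, and CBX2 and CBX8 are associated with committed cells in mouse.

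The CBX genes lie in pairs. On GRCh37, CBX2 (chr17:77751947-77761782, forward strand) and CBX8 (chr17:77765931-77775482, reverse strand) are 4149 bases apart and end towards each other. CBX6 (chr22:39257427-39268254) and CBX7 (chr22:39516172-39548685) both read from the reverse strand, with 247918 bases between them. The PHC genes are on separate chromosomes, PHC1 at chr12:9066492-9094063 on the forward strand, PHC2 at chr1:33789224-33896696 on the reverse strand and PHC3 at chr3:169804520-169899537 on the reverse strand. The last 1105 bases of PHC1 overlap the end of M6PR, a receptor of the lysosomal pathway read from the opposite strand. Whether the authors' counting used strand is not given in the sources used here, so reads from this overlap cannot be told apart.

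The RefSeq promoter table (GRCh38.p14) held 5 of the 7 genes, with 7 start sites among them. It was searched for 5 motifs on both strands in the 250 bases before each start. The motifs were CACGTG (E-box, a binding motif of MYC proteins), ATGCAAAT (octamer, of POU proteins), CTTTGAT (of the TCF/LEF proteins of Wnt signalling), TATAAA (a core promoter motif, of TBP) and GGGCGG (GC box, of SP proteins), and matches may overlap. Of 35116 promoters in the table, 6.34% held CACGTG, 1.63% ATGCAAAT, 2.26% CTTTGAT, 10.7% TATAAA and 42.6% GGGCGG. The windows of the 4 table-listed genes that changed between the states are printed because these genes moved in opposite directions, CBX7 and PHC1 falling and CBX6 and PHC2 rising. They run 5′ to 3′ in the direction of the gene, and capitals mark the motif matches. Each was found once in GRCh37, whose coordinates are given.
CBX6, chr22:39268222-39268471, reverse strand: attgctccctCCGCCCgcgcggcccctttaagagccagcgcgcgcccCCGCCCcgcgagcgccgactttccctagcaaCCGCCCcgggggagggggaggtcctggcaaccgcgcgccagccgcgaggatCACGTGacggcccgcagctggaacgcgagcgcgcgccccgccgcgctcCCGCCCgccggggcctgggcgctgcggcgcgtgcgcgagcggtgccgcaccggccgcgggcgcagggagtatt
CBX7, chr22:39548686-39548935, reverse strand: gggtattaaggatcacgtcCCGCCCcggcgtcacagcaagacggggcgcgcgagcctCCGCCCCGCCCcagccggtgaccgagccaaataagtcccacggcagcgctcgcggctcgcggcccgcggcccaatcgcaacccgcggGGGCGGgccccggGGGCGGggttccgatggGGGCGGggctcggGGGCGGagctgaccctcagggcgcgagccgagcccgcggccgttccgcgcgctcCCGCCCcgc
PHC1 upstream start, chr12:9066189-9066438, forward strand: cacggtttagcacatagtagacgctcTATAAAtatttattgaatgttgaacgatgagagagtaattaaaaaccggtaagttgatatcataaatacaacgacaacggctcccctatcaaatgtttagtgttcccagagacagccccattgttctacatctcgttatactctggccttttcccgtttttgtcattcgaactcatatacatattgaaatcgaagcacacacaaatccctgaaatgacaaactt
PHC1 downstream start, chr12:9066855-9067104, forward strand: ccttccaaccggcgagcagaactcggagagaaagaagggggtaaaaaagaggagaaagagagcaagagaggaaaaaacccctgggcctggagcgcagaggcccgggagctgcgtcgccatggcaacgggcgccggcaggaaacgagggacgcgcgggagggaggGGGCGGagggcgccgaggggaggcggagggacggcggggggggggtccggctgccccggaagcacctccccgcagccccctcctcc
PHC2 inner start, chr1:33815501-33815750, reverse strand: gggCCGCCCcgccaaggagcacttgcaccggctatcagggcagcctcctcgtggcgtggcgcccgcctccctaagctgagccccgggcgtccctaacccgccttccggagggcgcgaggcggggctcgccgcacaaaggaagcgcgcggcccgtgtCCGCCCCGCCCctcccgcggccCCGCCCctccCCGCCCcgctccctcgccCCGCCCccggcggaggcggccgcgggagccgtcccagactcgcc
PHC2 outer start, chr1:33896697-33896946, reverse strand: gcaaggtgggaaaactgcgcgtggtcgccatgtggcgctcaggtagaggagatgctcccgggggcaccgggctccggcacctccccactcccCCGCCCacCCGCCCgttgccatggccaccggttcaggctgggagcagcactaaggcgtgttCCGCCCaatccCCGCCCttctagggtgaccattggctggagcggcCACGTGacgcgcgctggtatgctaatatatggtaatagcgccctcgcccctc

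The CBX6 and CBX7 windows were alike in base composition, with 79.2% and 78.8% G or C and 45 and 41 CpG dinucleotides, against medians of 58% and 11 over all promoters in the table. CBX6 held 1 CACGTG and 4 GGGCGG matches, and CBX7 held 8 GGGCGG matches. The upstream PHC1 window was poor in G and C (37.6%, 10 CpGs) and held a TATAAA, while the downstream PHC1 window was GC-rich (70.4%, 23 CpGs) with 1 GGGCGG. The inner PHC2 window had 80.4% G or C, 36 CpGs and 6 GGGCGG matches, and the outer one had 66.8%, 21 CpGs, 4 GGGCGG matches and 1 CACGTG. The PHC3 window, not printed, had 56.8% G or C, 13 CpGs, 2 GGGCGG matches, 1 TATAAA and also 1 CACGTG. The gene-level table does not say which start was used. Neither ATGCAAAT nor CTTTGAT was present in any of the 7 windows, which says only that these letters are not there. CBX2 and CBX8 have no entry.

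The libraries held between 19454543 and 23036426 expected counts each. Of all genes, 15517 passed the filter on low counts. Of these, 55.8% passed the test between NMP-L cells and hESCs (edgeR quasi-likelihood, Benjamini-Hochberg adjusted p under 0.05), 29.1% as higher and 26.7% as lower in NMP-L cells, so a change was the common outcome in this comparison. Of 8 undifferentiated-state markers 6 were lower in NMP-L cells, their summed level moving from 4420-4744 TPM (an abundance scaled by transcript length) to 2674-2890 TPM. Of 8 tested NMP-like markers 6 were higher and 1, TBX6 (log2 fold change -1.24), was lower in NMP-L cells. SOX2 did not pass the test (log2 fold change 0.06, edgeR adjusted p = 0.53). FGF8, at 0.97 TPM in hESCs and 0.25 TPM in NMP-L cells, did not pass the filter. T and CDX2 were counted between 0 and 2 times in each hESC library and between 293 and 629 times in each NMP-L library. Summed markers of definitive endoderm went from 2.11-3.46 to 3.33-5.58 TPM (SOX17 and CER1 at or under 3 counts throughout), of mesoderm from 14.7-18.3 to 6.98-8.92 TPM (MEOX1 and HAND1), of neural cells from 262-295 to 165-186 TPM (NEUROG2, the sum being mostly TUBB3, from 273 to 164 TPM), and of neural crest and surface ectoderm from 24.6-29.2 to 2.87-3.62 TPM (TFAP2B, KRT5 and KRT14). In hESCs the crest and surface ectoderm sum was mostly FOXD3, which went from 21.4 to 0.78 TPM on the mean. SOX10 went from 4.75 to 2.4 TPM. TFAP2A, at 0.05 TPM in hESCs and 0.07 TPM in NMP-L cells, did not pass the filter. The fall of this sum is therefore largely that of FOXD3. The mesoderm fall came mostly from TCF15 (9.03 to 2.5 TPM on the mean) and TBX6 (6.59 to 2.99 TPM). MSGN1 (0 to 0.85 TPM), MESP1 (0.16 to 0.57), MESP2 (0.64 to 0.78) and FOXF1 (0.16 to 0.45) had higher means in NMP-L cells. Of these only MESP2 passed the filter, and it did not pass the test (edgeR adjusted p = 0.7). The endoderm sum was mostly CXCR4 (2.28 to 3.39 TPM), which did not pass the test (edgeR adjusted p = 0.17). The early neural gene SOX1 went the other way from the neural sum, from 0.20 ± 0.111 to 5.94 ± 0.934 TPM (SD, n = 3 each, log2 fold change 4.72, edgeR adjusted p = 7.6e-08). The part of these other cell types in the results was not tested. In these bulk samples fewer cells of a type and less RNA per cell cannot be told apart.

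All 7 genes passed the low-count filter, and 6 of 7 differed between the states, 3 higher in NMP-L cells (CBX6, CBX8 and PHC2) and 3 lower (CBX2, CBX7 and PHC1). Each family therefore held genes that rose and genes that fell. PHC3 did not pass the test. The median log2 fold change of the 7 was -0.16, beside 0.03 over all tested genes, and the share called is to be read against the 55.8% background. In 3-against-3 designs an exact permutation test cannot give a p-value under 0.1, so that test is given beside the fit over all genes. Log2 fold changes come from that fit on counts, and TPM values are the authors'.

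CBX2 was the most abundant of the 4 CBX genes in every library. Its levels were 68.6, 70.3 and 77.2 TPM in the hESC replicates and 43.9, 39.6 and 40.3 TPM in the NMP-L replicates. The groups did not overlap, and the lowest hESC replicate lay well above the highest NMP-L replicate. CBX2 fell from 72.0 ± 4.58 TPM (SD, n = 3) to 41.25 ± 2.27 TPM (SD, n = 3). The log2 fold change was -0.89 (SE 0.089, edgeR adjusted p = 6.4e-06), a 1.86-fold fall, with an exact permutation p of 0.1.

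CBX7, the polycomb reader associated with self-renewing stem cells, fell most steeply of the CBX genes. It was measured at 11.6, 10.7 and 13.6 TPM in hESCs and at 3.02, 3.44 and 3.40 TPM in NMP-L cells. The states were far apart relative to the spread within either. From 423, 415 and 510 counts the gene dropped to 124, 138 and 144. The fall was 3.88-fold (log2 fold change -1.96, SE 0.130, edgeR adjusted p = 2.4e-07, exact permutation p = 0.1), and 442 of the tested genes (2.85%) fell at least as much.

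CBX6, another chromodomain subunit of canonical PRC1, moved the other way. Its levels in hESCs were 9.61, 10.1 and 11.3 TPM, and in NMP-L cells 21.1, 17.8 and 18.5 TPM. All NMP-L replicates were above all hESC replicates. The rise was 1.73-fold (log2 fold change 0.79, SE 0.108, edgeR adjusted p = 7.5e-05, exact permutation p = 0.1), from 10.3 ± 0.845 to 19.1 ± 1.76 TPM (SD, n = 3 each). In hESCs CBX6 was below CBX7 in every replicate, and in NMP-L cells it was above CBX7 in every replicate.

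CBX8 was the rarest of the CBX genes in every library. It was counted 9, 18 and 31 times in the hESC replicates and 45, 46 and 41 times in the NMP-L replicates, that is 0.67, 1.24 and 2.23 TPM and 2.91, 3.15 and 2.62 TPM. The 3 NMP-L replicates lay close together and above all hESC replicates, whereas the hESC replicates were spread widely. The log2 fold change was 0.96 (SE 0.347, edgeR adjusted p = 0.034, exact permutation p = 0.1). This call did not hold without hESC replicate 1 (0.61, edgeR adjusted p = 0.11), without hESC replicate 2 (0.89, 0.10), or without NMP-L replicate 1 (0.95, 0.062) or 2 (0.88, 0.09), and without hESC replicate 3 the value was 1.46, so the rise of CBX8 is the least firm of the 6.

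**Figure D1:**
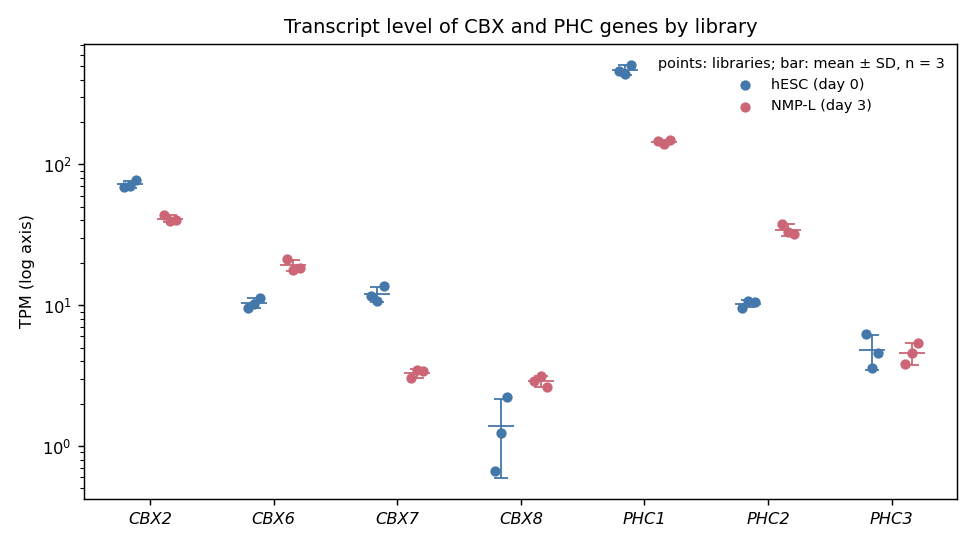
Level of each gene in each library in TPM on a log axis, with hESC replicates in blue and NMP-L replicates in red; the bar is the mean ± SD of 3 replicates. PHC1 lies at the top in both states, CBX7 and PHC1 drop, PHC2 and CBX6 climb, and the PHC3 groups overlap.

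PHC1, the polyhomeotic gene best known from embryonic stem cells, was the most abundant of the 7 in every library. It stood at 462, 438 and 510.2 TPM in the hESC replicates and at 147, 139 and 148 TPM in the NMP-L replicates. No library of one state came near the other state. The gene was counted between 21726 and 24864 times in each hESC library. PHC1 fell 3.47-fold (log2 fold change -1.80, SE 0.075, edgeR adjusted p = 6.6e-09, exact permutation p = 0.1), and 539 of the tested genes (3.47%) fell at least as far. M6PR, which shares its last bases on the other strand, was 0.86 higher on the log2 scale in NMP-L cells (SE 0.077, edgeR adjusted p = 2.9e-06), the opposite direction.

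PHC2, a broadly expressed polyhomeotic gene, rose. Its levels were 9.56, 10.8 and 10.5 TPM in the hESC replicates and 37.9, 32.9 and 32.0 TPM in the NMP-L replicates. The groups were well separated, and the replicates of each state lay close together. The rise was 3.11-fold (log2 fold change 1.64, SE 0.119, edgeR adjusted p = 5e-07, exact permutation p = 0.1), and 653 of the tested genes (4.21%) rose at least as much. On the mean, PHC2 went from 10.3 ± 0.621 to 34.3 ± 3.15 TPM (SD, n = 3 each).

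PHC3 is the third polyhomeotic gene. It measured 6.20, 3.59 and 4.56 TPM in hESCs and 3.80, 4.55 and 5.42 TPM in NMP-L cells, and the groups overlapped. The hESC replicates held both the highest and the lowest of the 6 values. The log2 fold change was -0.16 (SE 0.171, edgeR adjusted p = 0.46, exact permutation p = 0.6). Its sign turned without hESC replicate 1 (0.04), and after a correction for GC content and transcript length, added once the data had been seen, the value was -0.40 (edgeR adjusted p = 0.00098), so the direction of PHC3 was not settled by these libraries.

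The makeup of each family was then expressed as the share of each gene in the summed TPM of its family within a library, a measure that does not depend on scaling between libraries. The CBX total covers the 4 CBX genes named here, out of 5 polycomb-type CBX genes measured. With all 5 in the total, the mean share changed by -18.8 points for CBX2 and by 14.2 points for CBX6. All 7 shares differed without overlap between the states, each with an exact permutation p of 0.1, the smallest possible with 3 against 3. How often shares of other genes separate in this way was not computed, and 55.8% of all tested genes passed the test on levels. The count of shares is therefore a description only. Shares within a family add to 100%, so they are not independent of each other.

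Among the CBX genes CBX2 held the largest share in both states. It made up 75.8%, 76.1% and 74.1% of the CBX total in the hESC replicates and 61.8%, 61.9% and 62.2% in the NMP-L replicates, a loss of 13.3 percentage points on the mean, and the NMP-L values were almost the same in all replicates. CBX6 went from 10.6%, 10.96% and 10.8% to 29.8%, 27.8% and 28.6%, a gain of 17.9 points that made it the second of these 4 CBX transcripts. CBX7 held 12.9%, 11.6% and 13.0% in hESCs and 4.26%, 5.37% and 5.25% in NMP-L cells. On the TPM scale the second place thus passed from CBX7 to CBX6, whereas with shares of CPM, not per length, CBX6 (15.6%) was already above CBX7 (11.6%) in hESCs. CBX8 rose from 0.74%, 1.34% and 2.14% to 4.10%, 4.92% and 4.04%, and in NMP-L cells its mean share (4.36 ± 0.49%, SD, n = 3) came near that of CBX7 (4.96 ± 0.611%, SD, n = 3), the values of the pair overlapping although CBX7 was above CBX8 within each replicate.

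The PHC family was dominated by 1 gene in hESCs. PHC1 held 96.7%, 96.8% and 97.1% of the PHC total there and 77.9%, 78.8% and 79.8% in NMP-L cells, 18.1 points less on the mean. On the TPM scale PHC2 accounted for nearly all of the difference, going from 2.00%, 2.38% and 1.99% to 20.1%, 18.6% and 17.2%. With shares of CPM, not per length, the mean changes were -12.8 points for PHC1, 8.65 for PHC2 and 4.15 for PHC3. PHC3 held 1.297%, 0.79% and 0.87% in hESCs and 2.02%, 2.58% and 2.92% in NMP-L cells. The PHC3 share was higher although its own level was not shown to differ, and the total it was divided by fell. PHC1 remained the most abundant PHC transcript in every NMP-L replicate.

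**Figure D2:**
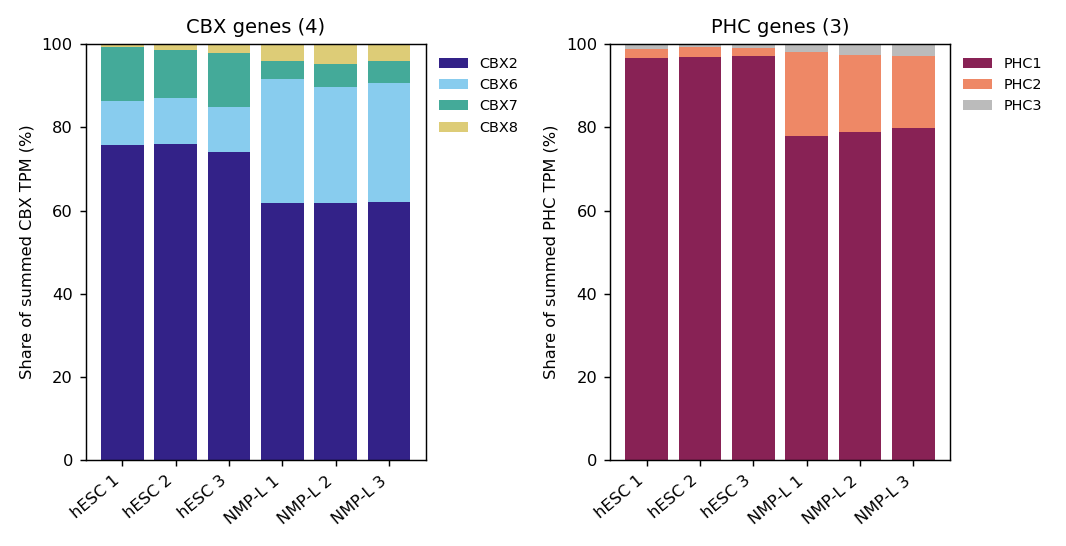
Share of each gene in the summed TPM of its family, in percent, in each of the 6 libraries, with the 4 CBX genes on the left and the 3 PHC genes on the right. CBX6 and PHC2 widen and CBX7 and PHC1 narrow in every NMP-L replicate.

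Pairs of paralogues were compared directly by their TPM ratio within each library. Of 9 pairs, 8 did not overlap between the states, each with an exact permutation p of 0.1 (Benjamini-Hochberg adjusted over the 9 pairs 0.11), which is the limit of the design and does not pass 0.05. How often pairs of other genes separate in this way was not computed, so this count too is a description only. PHC1 to PHC2 and CBX7 to CBX8 moved further than the other pairs. For PHC1 to PHC2 the ratio was 48.3, 40.8 and 48.8 in the hESC replicates and 3.87, 4.23 and 4.63 in the NMP-L replicates, so PHC1 went from 45.8 times to 4.23 times PHC2 on the geometric mean, a 10.8-fold change. The ratio of CBX7 to CBX8 went from 17.4, 8.66 and 6.09 to 1.04, 1.09 and 1.298, an 8.54-fold change that left the pair close to equal. Which of these pairs moved more depends on 1 library, since without hESC replicate 3 the log2 ratio changed by -3.43 for CBX7 to CBX8 and by -3.39 for PHC1 to PHC2.

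On the TPM scale, CBX6 to CBX7 was the pair whose order reversed. Its ratio was 0.83, 0.94 and 0.83 in hESCs and 7, 5.17 and 5.44 in NMP-L cells, a 6.74-fold change. The reversal rests on the scaling by length. On the CPM scale, which is not per length, the mean log2 ratio of CBX6 to CBX7 was 0.42 in hESCs and 3.17 in NMP-L cells, and it was PHC2 to PHC3 that crossed 0, from -1.20 to 0.57. CBX2 to CBX6 narrowed from 6.98 to 2.16 on the geometric mean, whereas CBX2 to CBX7 widened from 6.03 to 12.6, as CBX7 fell further than CBX2. CBX2 to CBX8 went from 58.6 to 14.3, PHC1 to PHC3 from 101 to 31.8, and PHC2 to PHC3 from 2.20 to 7.52. CBX6 to CBX8 was the exception among the 9. Its ratios of 14.3, 8.16 and 5.05 in hESCs spanned those of 7.27, 5.65 and 7.07 in NMP-L cells (exact permutation p = 0.5).

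**Figure D3:**
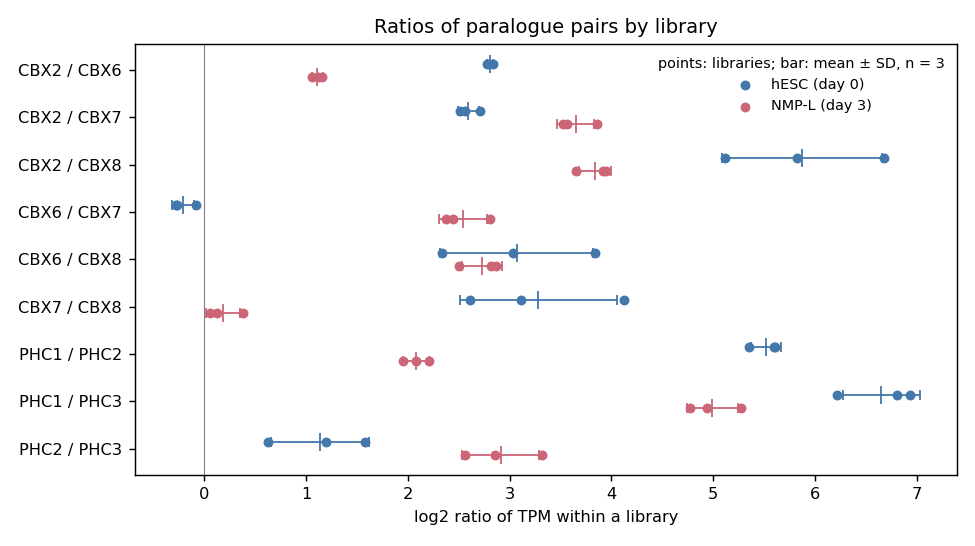
Log2 of the TPM ratio for each of the 9 paralogue pairs, hESC replicates in blue and NMP-L replicates in red, with the mean ± SD of 3 replicates; the line at 0 is equal abundance. CBX6 / CBX7 crosses from below 0 to above it, PHC1 / PHC2 and CBX7 / CBX8 shift by over 3, and CBX6 / CBX8 overlaps.

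The summed level fell in both families, more so for PHC. The 4 CBX genes together gave 90.5, 92.4 and 104 TPM in hESCs and 70.9, 64.0 and 64.8 TPM in NMP-L cells, a 1.44-fold lower mean. For the 3 PHC genes the sums were 478, 452.5 and 525 TPM and 188, 177 and 186 TPM, a 2.64-fold lower mean. These totals are descriptions without a test, and each is led by its most abundant gene. PHC transcripts outnumbered the 4 CBX transcripts by 5.28, 4.90 and 5.04 to 1 in the hESC replicates and by 2.65, 2.76 and 2.87 to 1 in the NMP-L replicates.

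Set among 45 polycomb genes (the 7 and 38 others from a list of PRC1 and PRC2 subunits), PHC1 ranked first by mean TPM in hESCs. It was second in NMP-L cells, where RBBP7, a histone-binding subunit of PRC2, was first. PHC2 moved from rank 31 to rank 12 and CBX7 from rank 27 to rank 41. CBX2 went from 7 to 10, CBX6 from 30 to 25, CBX8 from 44 to 43 and PHC3 from 37 to 39.

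Of the 38 other polycomb genes 26 passed the test, 14 higher and 12 lower in NMP-L cells, with a median log2 fold change of -0.01, beside 55.8% called and a median of 0.03 over all tested genes. The share higher depends on scaling. It was 53.8% of those called here, 88.9% (24 of 27) with counts taken relative to GAPDH and 23.8% (5 of 21) relative to HPRT1, both housekeeping genes, and 39.3% (11 of 28) with the GC and length correction. The same scalings moved the median of all genes from 0.03 to 0.59 (GAPDH) and -0.27 (HPRT1), and scaling by library totals alone moved it to 0.10, while over all 16 alternatives CBX2, CBX6, CBX7, PHC1 and PHC2 kept their direction and passed the test.

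Of the 8 RING and PCGF genes, which encode the core of PRC1, 4 passed the test (3 higher, 1 lower), a share near the 55.8% of all tested genes. RNF2, which encodes Ring1B, was at 29.7, 23.4 and 24.9 TPM in hESCs and 21.9, 23.8 and 26.9 TPM in NMP-L cells, and RING1 went from 17.9 ± 0.422 to 16.1 ± 1.34 TPM (SD, n = 3 each). Neither passed the test (log2 fold change -0.20 and -0.25, edgeR adjusted p = 0.12 and 0.09). Of the PCGF proteins that join canonical PRC1, PCGF2 (Mel18) measured 64.8 ± 6.90 and 71.4 ± 5.21 TPM (log2 fold change 0.04, edgeR adjusted p = 0.76), and BMI1 (PCGF4) rose from 2.62 ± 0.723 to 8.67 ± 1.40 TPM (1.63, SE 0.178, edgeR adjusted p = 1.4e-05). BMI1 has expected counts that are not whole numbers, so reads shared with other genes were split, and its value is uncertain. PCGF1 (0.66) and PCGF5 (1.46), which belong to variant PRC1, rose as well.

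Variant PRC1, which lacks CBX and PHC proteins, was called in 8 of 11 genes, 4 in each direction, beside 55.8% of all tested genes. KDM2B, which brings variant PRC1 to unmethylated CpG islands, fell by 0.75 on the log2 scale, and AUTS2 (-1.16) and FBRSL1 (-0.72) fell too. YAF2 was counted only 4, 6 and 3 times in hESCs and 81, 77 and 137 times in NMP-L cells (4.23, SE 0.342, edgeR adjusted p = 1.2e-06). Among proteins with SAM or MBT domains, 5 of 7 passed (3 higher, 2 lower, the same background of 55.8% applying), with SCMH1 (0.97) and SCML1 (0.93, counts partly split) higher and SFMBT2 (-0.94) lower. SCMH1 binds PHC proteins through its SAM domain.

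In PRC2, which writes the mark that CBX proteins read, 9 of 12 genes passed (4 higher, 5 lower), beside 55.8% of all tested genes. EZH2, the catalytic subunit, rose from 33.6 ± 1.78 to 53.8 ± 4.55 TPM (log2 fold change 0.59, SE 0.090, edgeR adjusted p = 0.00019) and EPOP by 1.11. JARID2, an accessory subunit that recruits PRC2, was at 410.4, 351 and 417 TPM in hESCs and 109, 106 and 107 TPM in NMP-L cells. Its fall of 3.90-fold (-1.96, SE 0.079, edgeR adjusted p = 5.1e-09) stands beside falls of 3.47-fold for PHC1 and 3.88-fold for CBX7. MTF2 fell by 0.69 on the log2 scale.

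The HP1 chromobox genes share the chromodomain with the CBX genes but are not polycomb subunits, their proteins binding H3K9 methylation. All 3 passed the test with small changes, beside 55.8% of all tested genes. CBX5 rose by 0.45 (edgeR adjusted p = 0.0037), and CBX1 (-0.26, 0.01) and CBX3 (-0.45, 0.003) fell. With counts taken relative to GAPDH none of the 3 passed as lower, and relative to HPRT1 none passed as higher.

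**Figure D4:**
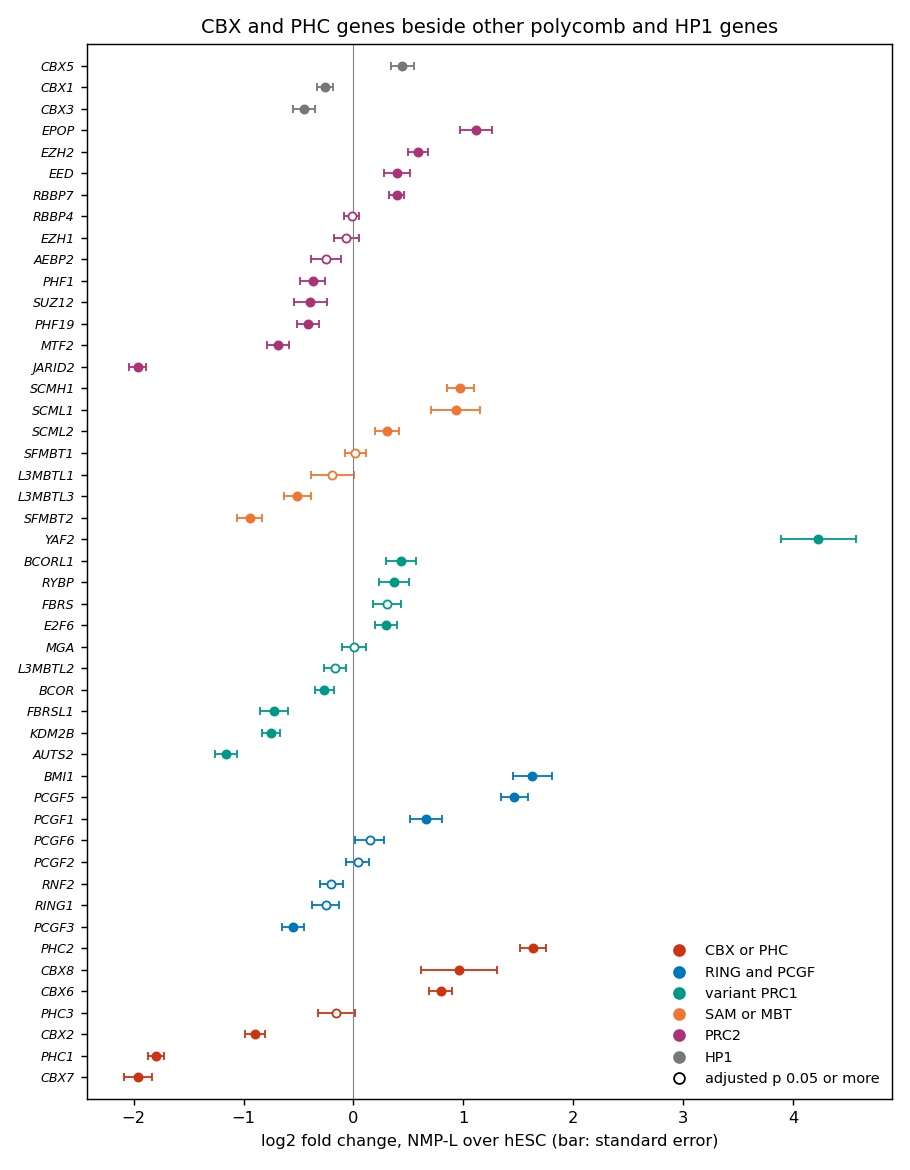
Log2 fold change of NMP-L cells over hESCs with its standard error for the CBX and PHC genes, 38 other polycomb genes and 3 HP1 genes, coloured by role; open points did not pass the test. CBX7 and PHC1 lie at the lower end near JARID2, and PHC2 lies near BMI1 and PCGF5.

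Genes with the most similar course over the 6 libraries were sought for the largest rise and fall of each family, as the smallest distance between centred log2 CPM values (counts scaled to library size) among genes at a mean of at least 10 CPM. With only 2 groups, this likeness is mostly a likeness of fold change. For PHC1 they were MYCN (distance 0.0895, log2 fold change -1.79) and SALL2 (0.0925, -1.80), transcription factors of the MYC and SALL families. For PHC2 they were SAPCD2 (0.0909, 1.61) and MAPK4 (0.113, 1.66). PIM1 (0.196, -1.97) and ZMAT4 (0.217, -2.003) were nearest to CBX7. CBX8 had no close match, its nearest genes being BLOC1S5-TXNDC5 at 0.748 and NPR1 at 0.837.

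Genes within 250 kb did not all move with a member. Near CBX6, 10 of 16 tested genes passed, 5 in each direction, and near CBX7 9 of 12 (4 higher, 5 lower), beside 55.8% of all tested genes. These windows overlap, and CBX6 and CBX7 are each counted near the other. Beside the fall of CBX7, PDGFB (log2 fold change -2.51) and SYNGR1 (-1.19) were lower, and DNAL4 (1.11) was higher near CBX6. APOBEC3B-AS1 (2.79, under 1 CPM in hESCs), which lies between CBX6 and CBX7, was higher. It is 119310 bases from CBX6 and 121958 bases from CBX7. Near PHC1, A2ML1 fell by 2.28 and RIMKLB rose by 0.81. The neighbours of PHC2 that passed were AZIN2 (1.59), ZSCAN20 (0.60) and CSMD2 (-0.51). Around PHC3, all 3 that passed were lower, namely SKIL (-3.47), CLDN11 (-2.92) and PRKCI (-0.73), while PHC3 did not pass. CBX2 and CBX8, which converge on each other, moved in opposite directions, and TBC1D16 near both fell by 0.37. The 2 CBX pairs each held 1 gene that rose and 1 that fell.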

How the data were processed

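RNA-seq of polyadenylated RNA (single-end reads of 76 bases) was available for 3 hESC and 3 NMP-L replicates. Per gene and library, the authors deposited expected counts from RSEM without scaling between libraries. They also deposited TPM, in which the effective length of the transcripts is taken into account and each library sums to 1000000. The submitters' processing notes name cutadapt 1.9.1, STAR 2.5.2a, RSEM 1.3.0, DESeq2 1.12.3 and hg19, and the annotation is not given in the sources used here. The paper's methods do not describe the RNA-seq, and they give another hESC medium than the labels. Labels call the samples biological replicates without saying from which cultures, so p-values measure the spread between these samples.

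Differences were tested on the rounded expected counts in edgeR 4.0.16 under R 4.3.3 (filterByExpr with a minimum count of 10, TMM, glmQLFit and glmQLFTest for condition, Benjamini-Hochberg adjustment over all 15517 tested genes). Standard errors (SE) were obtained as the log2 fold change over the root of the F statistic. Exact two-sided permutation tests used log2(CPM + 0.1) for levels, and shares or log2 TPM ratios otherwise. Shares, ratios and totals used the deposited TPM. Library totals of 19454543 to 23036426 make 3 counts, the detection floor, worth 0.130 to 0.154 CPM. Replicates differed beyond counting noise (chi-square over degrees of freedom 6.53 to 17.57). None of the 7 genes had fractional counts, against 2336 of 27672 genes. Effective lengths, from counts over TPM, differed by at most 0.603% between the states for each of the 7.

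DESeq2 1.42.0, other scalings, filters, a replicate block, left-out libraries and CPM-based shares were alternatives, and a correction for GC content and transcript length (lowess, span 0.3) was added after seeing the data. Symbols were matched to GENCODE release 44 on GRCh37 (23876 directly, 3796 without a match). The 7 genes and the gene lists were chosen with earlier results of these data known. Named genes are the 7 in full, other polycomb and HP1 genes past the threshold with at least 1.5-fold change plus RNF2, RING1, BMI1, PCGF2 and EZH2, up to 3 called neighbours within 250 kb, and 2 nearest genes for the largest rise and fall of each family. RBBP7, CBX1, CBX3 and CBX5 were named after their values were seen, because a rank or count turned on them. The single values of one neighbour that the rule named are not reported here. Figures were drawn with matplotlib 3.10.9.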

Additional observations from a re-analysis of the deposited data

How the results depend on the processing

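CBX2, CBX6, CBX7, PHC1 and PHC2 kept their direction and passed the test under all 16 alternatives. Of the alternatives that scale counts otherwise, GAPDH raised all log2 fold changes and called 10027 genes higher and 1428 lower (87.5% higher, against 52.1%), and HPRT1 called 1793 higher and 5294 lower (25.3%). The GC and length correction gave 41.3% higher. For CBX8 the log2 fold change was 0.63 relative to HPRT1 (edgeR adjusted p = 0.13) and between 0.61 and 1.46 with 1 library left out, passing in 2 of 6, and over all its alternatives the adjusted p ran from 0.0034 to 0.13. CBX8 was not tested where 10 counts were required in every library. For PHC3 it was 0.41 relative to GAPDH, -0.40 after the GC and length correction (adjusted p = 0.00098) and between -0.314 and 0.036 with 1 library left out. The cause was not tested. The log2 ratio of CBX6 to CBX8, -0.34, lay between -0.709 and 0.044 with 1 library left out, turning in sign without hESC replicate 1 (0.044). With CPM, which is not per length, in place of TPM, shares changed by -16.6 points for CBX2, 22.99 for CBX6, 0.91 for CBX8, -12.8 for PHC1, 8.65 for PHC2 and 4.15 for PHC3, and the log2 PHC total by -1.52 (-1.40 with TPM). Long transcripts weigh more on that scale, on which CBX7 changed by -7.30 points and CBX6 stood above CBX7 in both states. With every polycomb-type CBX gene in the total, the changes were -18.8 points for CBX2 and 14.2 for CBX6. Deviations from the state mean correlated at -0.37, -0.06 and -0.13 between hESC and NMP-L libraries of the same replicate number. With 3 replicates a state, these values cannot show whether the samples were paired. With the replicate block 7560 genes were called, among them 6 of 7 members (CBX8 1.02, adjusted p = 0.033, PHC3 -0.14, adjusted p = 0.56), 21 of 38 other polycomb genes and 2 of 3 HP1 genes. The 9 to 46 counts of CBX8 per library limit what can be said of it, and 3 replicates a state limit every exact test to p = 0.1 or more.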
